A study of Mus musculus with 39 samples.

Results

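The 10 genes described here make, or control the making of, fatty acids from acetyl-CoA: Thrsp, Mid1ip1, Fasn, Acaca, Acly, Scd1, Scd2, Elovl6, Srebf1 and Me1. They were chosen by gene symbol, as members of the lipogenic programme, out of 55357 genes listed for lung and for colon. The question was whether Thrsp and Mid1ip1 moved with the fatty acid synthesis enzymes across tissue, genotype and treatment. The choice was made with results of these data known. Which values prompted it is not recorded, so the fall of Thrsp (ENSMUSG00000035686) and Mid1ip1 (ENSMUSG00000008035) in the knockout colon is given below as a description only.

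Fatty acids are built in the cytosol. ATP citrate lyase (Acly) splits citrate into acetyl-CoA, malic enzyme (Me1) supplies NADPH, acetyl-CoA carboxylase (Acaca) makes malonyl-CoA, and fatty acid synthase (Fasn) assembles palmitate. Elovl6 lengthens that product, and the stearoyl-CoA desaturases Scd1 and Scd2 introduce a double bond. Srebf1 encodes SREBP-1, a transcription factor that switches on most of these genes when insulin signalling is high. Thrsp encodes a small thyroid hormone-responsive protein that is abundant in fat, liver and lactating mammary gland, and its paralog Mid1ip1 encodes a protein that binds acetyl-CoA carboxylase and promotes its assembly into active polymers. In lung, alveolar type 2 cells make fatty acids for surfactant lipids, and adipocytes carry the whole programme at high levels wherever fat is present.

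Lung and colon were taken from C57BL/6N mice, either WT or Cd177 KO, in an AP group (acute pancreatitis) or a sham operation group. Cd177 encodes a surface glycoprotein of neutrophils. Each of the 8 groups held 5 libraries, except colon from Cd177 KO mice in the AP group, which held 4 (replicates 1, 3, 4 and 5). The groups are called WT sham, WT AP, KO sham and KO AP. How pancreatitis was induced, the time of sampling, the kind of knockout, and the mice's age and sex were absent from the labels read here. The labels do not say that replicates came from separate animals, so the p-values measure only the spread between these libraries, which may be technical. In bulk tissue, fewer cells of a type and less RNA per cell cannot be told apart.

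Cd177 was listed at 0 FPKM (fragments per kilobase of transcript, scaled to library size) in all 19 KO libraries, and lay between 1.305 and 4.18 FPKM in WT lung and between 38.5 and 76.4 FPKM in WT colon. The depth recovered from the steps of low values was 57.9 to 71.2 M reads in WT lung, 77.0 to 95.4 M in KO lung, 55.6 to 78.3 M in WT colon and 77.7 to 98.6 M in KO colon. Depth and genotype therefore cannot be told apart. The alveolar type 2 markers summed to 19671 to 29739.6 FPKM in WT sham lung, and the colon epithelial markers to 3059.8 to 9386 FPKM in WT sham colon. Lung KO AP replicate 3 stood apart from the other 19 lung libraries in adipocyte genes and in most of the genes described here, so lung results are given with and without it. Several marker lists moved with genotype, and their part in the genotype differences below was not tested. In KO against WT lung after sham operation, 4 of 6 endothelial, 7 of 10 alveolar type 2 and 4 of 7 alveolar macrophage markers were lower, and 4 of 6 smooth muscle markers were higher and 1, Myh11, lower. In KO against WT lung in AP, the same lists gave 4 of 6, 8 of 10 and 7 of 7 lower, and 5 of 6 higher with Myh11 lower. These counts stand beside 58.8% of all lung genes called after sham operation and 55.8% in AP. In colon, 5 of 6 endothelial markers were lower after sham operation and 6 of 6 in AP, and 5 of 6 smooth muscle markers were higher in both, beside 31.4% and 18.3% of all colon genes called. Of 6 alveolar type 1 markers, 2 were lower after sham operation and 3 in AP, with 1 higher in each. Of 6 club and ciliated cell markers, 1 was higher and 1 lower after sham operation, and 4 were higher in AP. Of 10 colon epithelial markers, 1 was lower after sham operation, and 3 were lower and 2 higher in AP. Rescaling every library to the same FPKM sum (TPM) moved the median KO minus WT difference of all genes to −0.18 in AP and −0.25 after sham operation in lung, and to −0.12 and −0.16 in colon, on the log2 scale. The differences below are relative to the FPKM scale as deposited, where these medians lie within 0.02 of 0.

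The windows from 250 bases before to 50 after the transcription start of Thrsp, Mid1ip1 and Fasn are shown because the question turns on whether these genes move together. They are RefSeq sequences of the GRCm38.p6 build, while the values were made on mm39. The Thrsp window lies at chr7:97417501-97417800 on the minus strand, the Mid1ip1 window at chrX:10717115-10717414 on the plus strand, and the Fasn window at chr11:120824498-120824797 on the minus strand. Capitals mark the CCAAT box on either strand.
Thrsp: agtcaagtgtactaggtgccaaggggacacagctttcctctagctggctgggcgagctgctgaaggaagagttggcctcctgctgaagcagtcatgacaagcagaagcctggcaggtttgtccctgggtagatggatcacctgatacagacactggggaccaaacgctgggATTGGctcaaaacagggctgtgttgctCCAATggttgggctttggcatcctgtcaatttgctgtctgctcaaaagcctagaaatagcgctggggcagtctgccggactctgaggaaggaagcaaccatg
Mid1ip1: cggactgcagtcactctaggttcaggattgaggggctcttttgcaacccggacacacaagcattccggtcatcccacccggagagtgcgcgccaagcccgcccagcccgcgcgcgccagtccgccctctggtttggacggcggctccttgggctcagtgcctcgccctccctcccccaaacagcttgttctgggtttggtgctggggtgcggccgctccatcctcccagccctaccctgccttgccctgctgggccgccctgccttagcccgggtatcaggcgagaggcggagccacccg
Fasn: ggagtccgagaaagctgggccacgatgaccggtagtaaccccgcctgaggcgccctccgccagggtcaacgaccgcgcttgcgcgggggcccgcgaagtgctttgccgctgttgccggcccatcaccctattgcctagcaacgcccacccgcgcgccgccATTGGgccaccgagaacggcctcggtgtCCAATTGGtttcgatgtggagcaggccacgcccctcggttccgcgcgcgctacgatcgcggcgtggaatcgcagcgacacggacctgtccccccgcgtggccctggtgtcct
Both strands of all 32851 such windows were searched for 3 motifs. CCAAT, the site of the NF-Y factor, was held by 37.4% of all windows, the E-box CACGTG by 7.15%, and TCACNCCAC, a form of the sterol regulatory element, by 1.24%. Windows were found for 8 of the 10 genes, 11 windows in all. CCAAT occurred in 6 of these 11, from Thrsp, Fasn, Acly, Srebf1 and Me1, and not in the Mid1ip1 window. Of the 3 matches in Fasn, 2 overlap each other. The E-box and the sterol regulatory element letters occurred in 0 of the 11. A match is a description and not a site in use, and no match says only that these letters are not in this window.

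In lung, Thrsp was a low gene in all libraries but 1, and Mid1ip1 was a high one. Thrsp measured 3.68, 2.46, 1.96, 1.86 and 2.39 FPKM in WT sham, 3.35, 2.85, 2.81, 2.93 and 2.88 in WT AP, 3.94, 10.01, 5.05, 1.72 and 7.94 in KO sham and 3.64, 1.75, 519, 3.66 and 1.70 in KO AP. The value of 519 belongs to KO AP replicate 3, and the other 4 KO AP libraries lay within the range of the WT libraries or below it. By median the order was WT sham (2.39 FPKM), WT AP (2.88), KO AP (3.64) and KO sham (5.05), and every pair of neighbours overlapped. Mid1ip1 measured 85.6, 92.2, 92.1, 105 and 103 FPKM in WT sham, 105, 95.3, 113, 116 and 95.1 in WT AP, 97.6, 99.6, 115, 107 and 146 in KO sham and 125, 87.5, 116, 93.7 and 90.7 in KO AP. All 4 groups overlapped, and KO AP replicate 3 lay inside the range of the other libraries, with 3 of them above it.

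Neither paralog passed the test in any lung comparison on all libraries. Tests were limma fits on log2(FPKM + 1) over all 4 groups of a tissue, with p-values adjusted over all 15978 lung or 15001 colon genes tested and a threshold of 0.05. AP minus sham was 0.14 ± 0.13 (SE) for Mid1ip1 in WT, with a 95% interval of −0.13 to 0.40, and −0.14 ± 0.13 in KO, with an interval of −0.40 to 0.12. For Thrsp the same differences were 0.21 ± 0.96 and 0.68 ± 0.96, or 0.21 ± 0.28 and −0.76 ± 0.29 without KO AP replicate 3. Without that library Thrsp was 0.82 ± 0.28 higher in KO than in WT after sham operation (limma, adjusted p = 0.0159; with it, 0.475), and the remaining 4 comparisons of Thrsp missed the threshold with and without it. The KO minus WT difference of Mid1ip1 after sham operation was 0.23 ± 0.13 (adjusted p = 0.122), and −0.05 on the TPM scale.

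**Figure D1:**
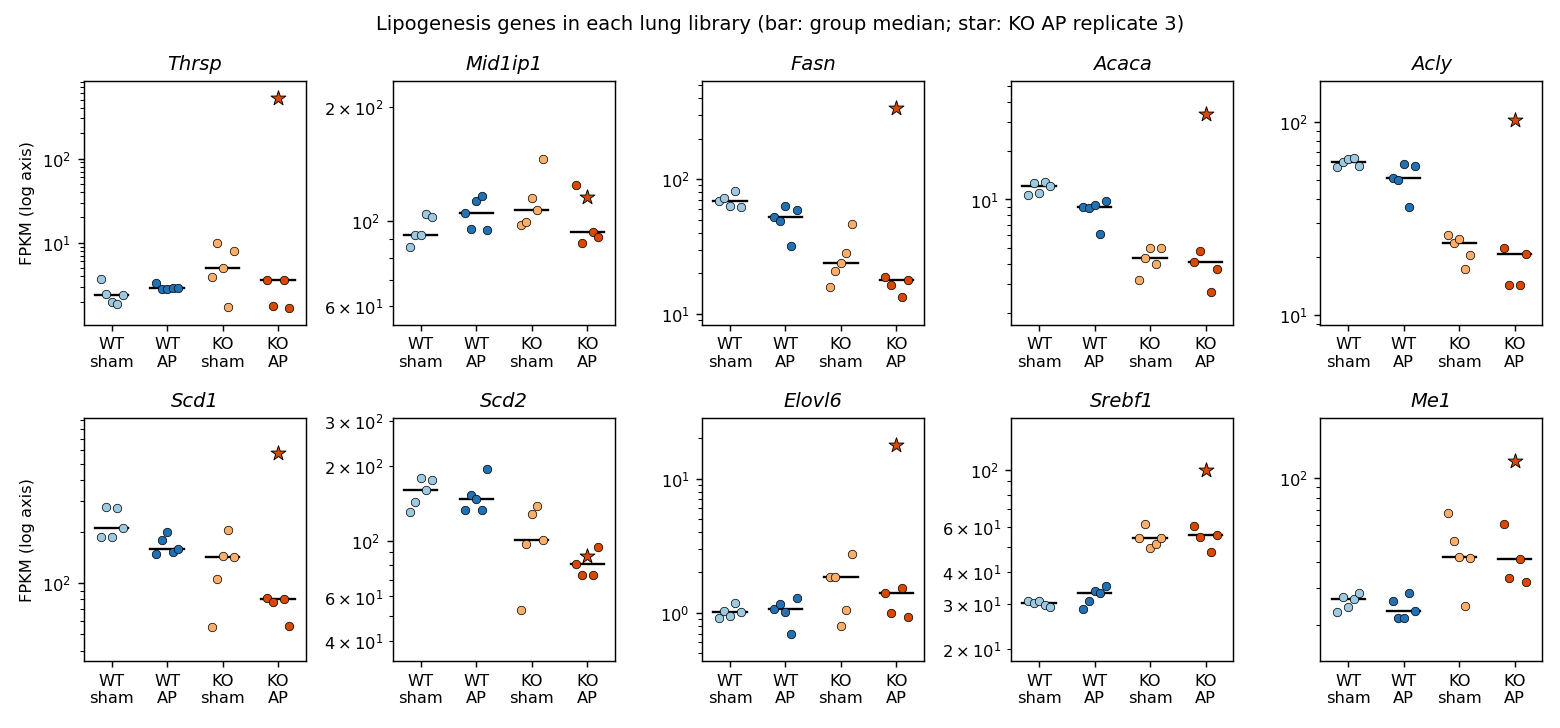
FPKM of the 10 genes in every lung library, on a log axis, by group of genotype and treatment, with 1 point per library and the group median as a bar. KO AP replicate 3 lies above all other libraries in 8 of the 10 panels, with Thrsp at 519 FPKM against at most 10.01 elsewhere, and inside their range for Mid1ip1 and Scd2.

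Lung KO AP replicate 3 combined the highest levels of Thrsp, Fasn, Acaca, Acly, Scd1, Elovl6, Srebf1 and Me1 with the highest levels of fat cell genes. Thrsp was 51.9 times the next highest lung library. Elovl6 was 6.47 times, Fasn 4.10 times, Acaca 2.64 times and Scd1 2.08 times the next highest, followed by Me1 at 1.77, Srebf1 at 1.63 and Acly at 1.57 times. Mid1ip1 (116 FPKM) and Scd2 (87.4 FPKM) were exceeded by 3 and by 15 of the other 19 libraries. The 12 adipocyte markers summed to 3282 FPKM in this library and to 51.7 to 208 FPKM in the other 19. Adiponectin (Adipoq) reached 144 FPKM against at most 7.20, Fabp4 reached 1402 FPKM, and Lep, which was listed at 0 in 15 of the 20 libraries, reached 2.97 FPKM. Ucp1 and Cidea, markers of brown adipocytes, reached 181 and 329.9 FPKM, while Ucp1 was listed at 0 in 10 libraries and was at most 0.0910 FPKM in the rest. The part of the adipocyte markers in these levels was not tested.

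**Figure D2:**
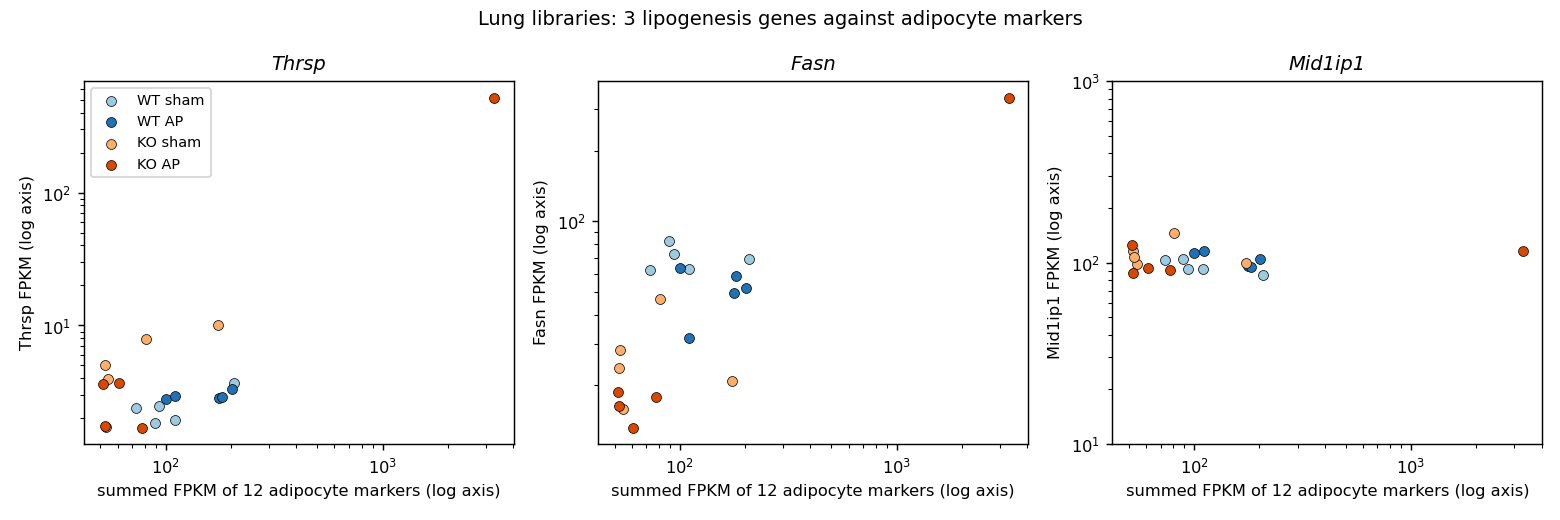
Summed FPKM of the adipocyte markers (horizontal axis, log scale) against the FPKM of Thrsp, Fasn and Mid1ip1 (vertical axes, log scale) in the 20 lung libraries, coloured by group. KO AP replicate 3, at a marker sum of 3282 FPKM, is far above the rest for Thrsp and Fasn and within the rest for Mid1ip1.

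The lung genes that differed between genotypes did not all differ in 1 direction: Srebf1 and Me1 were higher in KO, while Acly and Scd2 were lower, in both treatments. In AP, 4 of the 10 genes passed the test between KO and WT, 2 higher and 2 lower, where 55.8% of all genes tested did. After sham operation 6 passed, 2 higher and 4 lower, against 58.8% of all genes. Without KO AP replicate 3 the counts were 7 in AP, 2 higher and 5 lower (55.8% of all genes), and 8 after sham operation, 3 higher and 5 lower (61.0%). Read against these backgrounds, the counts alone do not set the 10 genes apart. Their median KO minus WT difference was −0.23 in AP and −0.21 after sham operation, beside 0.00 and −0.01 over all genes. Without KO AP replicate 3 the median in AP was −0.53, and that after sham operation was −0.21. The adipocyte markers were followed in the same comparisons, and their counts stand beside the same shares of all genes. In AP 1 of 10 tested was higher in KO and 0 lower on all libraries (median −0.01). Without KO AP replicate 3, 2 were higher and 7 lower (median −1.15), the lower ones including Cfd, Cidec, Fabp4 and Adipoq. Cidea lay the other way, at 2.15 FPKM or more in KO AP and at most 1.75 in WT AP. After sham operation 1 was lower and 0 higher on all libraries, and 3 were lower and 1 higher without it (median −0.63). Their part in the lower levels of the enzymes in KO lung was not tested.

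Srebf1, the regulator, measured 30.7, 30.1, 30.6, 29.5 and 29.1 FPKM in WT sham and 54.1, 61.1, 49.3, 51.1 and 54.3 in KO sham. In AP it measured 28.5, 30.6, 33.6, 33.0 and 35.3 FPKM in WT and 60.5, 54.7, 99.8, 47.6 and 55.4 in KO. Every KO library lay above every WT library of the same treatment. The KO minus WT difference was 0.82 ± 0.14 after sham operation (limma, adjusted p = 6.18e-05) and 0.92 ± 0.14 in AP (2.85e-05), the latter 0.74 ± 0.09 without KO AP replicate 3. Me1, the source of NADPH, ranged over 23.0 to 28.5 FPKM in WT sham, 24.8 to 67.7 in KO sham, 21.6 to 28.6 in WT AP and 32.2 to 120.0 in KO AP. Its difference was 1.03 ± 0.28 in AP (adjusted p = 0.00407), or 0.72 ± 0.21 without KO AP replicate 3 (0.0521 on TPM without it), and 0.71 ± 0.28 after sham operation (0.0342). The sham call of Me1 was lost when WT sham replicate 1, 3 or 4 or KO sham replicate 1 or 2 was left out, with no filter (adjusted p = 0.0788) and on the TPM scale (0.187).

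Acly, which makes acetyl-CoA, measured 58.6, 62.0, 64.4, 64.9 and 59.1 FPKM in WT sham and 26.0, 23.6, 24.8, 17.3 and 20.4 in KO sham. In AP it measured 51.5, 49.9, 60.8, 36.3 and 59.0 FPKM in WT and 22.2, 14.3, 102, 14.2 and 20.8 in KO. The sham groups did not overlap, and the AP groups did so only through KO AP replicate 3. The KO minus WT difference was −1.44 ± 0.35 after sham operation (limma, adjusted p = 0.00163) and −0.99 ± 0.35 in AP (0.0217). The AP call of Acly was lost without KO AP replicate 2 or 4, with no filter (0.0535) and in a fit of the 2 groups alone (0.0773). Without replicate 3 the difference was −1.48 ± 0.16.

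Acaca, the malonyl-CoA step, measured 10.7, 12.6, 10.99, 12.7 and 12.04 FPKM in WT sham and 3.19, 4.35, 4.995, 3.99 and 5.03 in KO sham, again without overlap, a difference of −1.28 ± 0.39 (0.00830). In AP its difference was −0.42 ± 0.39 with KO AP replicate 3, which missed the threshold, and −0.996 ± 0.14 without it (2.29e-05).

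Fasn, the synthase itself, measured 69.1, 72.5, 62.9, 82.2 and 62.2 FPKM in WT sham and 15.9, 20.8, 23.7, 28.2 and 46.7 in KO sham, and the groups did not overlap. In AP it measured 52.3, 49.3, 63.1, 31.9 and 58.8 FPKM in WT and 18.7, 16.4, 337, 13.2 and 17.8 in KO, where all KO libraries but replicate 3 lay below all WT libraries. The sham difference was −1.42 ± 0.59 (limma, adjusted p = 0.0438), a call lost under 12 of 20 single omissions (all 5 WT sham libraries, KO sham replicates 1, 2, 3 and 4, and WT AP replicates 1, 2 and 5) and with no filter (0.103). The AP difference was −0.69 ± 0.59, not past the threshold, and −1.55 ± 0.23 without KO AP replicate 3 (2.91e-05).

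Of the desaturases, Scd2 measured 133, 152, 147, 133 and 194 FPKM in WT AP and 80.9, 73.3, 87.4, 73.1 and 94.7 in KO AP, with every KO library lower. The difference was −0.88 ± 0.19 in AP (limma, adjusted p = 0.000863) and −0.66 ± 0.19 after sham operation (0.00665), where Scd2 spanned 130.01 to 179 FPKM in WT and 52.8 to 138 in KO. Scd1 spanned 185 to 279 FPKM in WT sham, 55.5 to 204 in KO sham, 147 to 198 in WT AP and 56.0 to 580.2 in KO AP. It missed the threshold on all libraries, and without KO AP replicate 3 it was lower in KO, with a difference of −0.89 ± 0.25 after sham operation (0.00419) and −1.17 ± 0.26 in AP (0.00104). Elovl6, the elongase, was a low gene in lung, 0.693 to 2.76 FPKM outside KO AP replicate 3, and passed no test there.

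Pancreatitis moved none of the 10 genes past the threshold in lung. In WT, 0 of 10 passed, where 13 of 15978 genes did (0.0814%) and 1066 had an unadjusted p under 0.05 with limma. In KO, 0 of 10 passed, where 2 genes did (0.0125%) and 2234 had an unadjusted p under 0.05. Without KO AP replicate 3, 0 of 10 passed in KO, where 0.924% of all genes did. The test of a different AP response in KO and WT gave 0 of 10 and 0% of all genes, with 1384 genes at an unadjusted p under 0.05. Of the 10 genes, only Acaca had separate groups by treatment, in WT. Every AP library (6.14 to 9.81 FPKM) lay below every sham library (10.7 to 12.7). The difference of −0.42 ± 0.39 missed the threshold (limma, adjusted p = 0.922). The share of all lung genes with groups apart in this way is not given here, so this is a description only.

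In colon, Thrsp was low in all groups and lowest in KO AP. It measured 1.78, 3.02, 2.75, 2.31 and 1.71 FPKM in WT sham, 1.39, 1.78, 1.77, 1.88 and 1.38 in WT AP and 2.097, 2.07, 1.79, 2.67 and 2.23 in KO sham. In KO AP replicates 1, 3, 4 and 5 it measured 0.636, 0.183, 0.979 and 0.7501 FPKM. The KO AP libraries lay below every KO sham and every WT AP library, while the other 3 groups overlapped. By median the order was KO AP (0.693 FPKM), WT AP (1.77), KO sham (2.097) and WT sham (2.31). At these levels the log2(FPKM + 1) scale understates a fold change, and the ratio of mean FPKM was 0.294 for KO AP to KO sham and 0.389 for KO AP to WT AP.

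Mid1ip1 in colon was highest in KO sham. It measured 36.6, 33.2, 33.0, 33.6 and 35.2 FPKM in WT sham, 39.0, 41.9, 37.3, 54.8 and 45.5 in WT AP, 79.1, 82.9, 79.5, 96.5 and 91.7 in KO sham and 59.4, 54.4, 51.1 and 53.5 in KO AP. The 5 KO sham libraries lay above the libraries of the other groups, and every WT AP library lay above every WT sham library. The medians rank as WT sham (33.6 FPKM), WT AP (41.9), KO AP (53.9) and KO sham (82.9), and of these neighbours only WT AP and KO AP overlapped. AP thus stood above sham in all WT libraries and below sham in all KO libraries. This arrangement was found in 4 of 15001 genes tested (0.0267%), the others being Prkcsh, Snrpb and Txndc5, named after their values were seen. It includes the fall of Mid1ip1 in KO colon, which may have prompted the choice of this gene. The share is therefore a description only, and no test is read from it.

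In KO colon, AP minus sham was −0.97 ± 0.15 for Thrsp and −0.64 ± 0.11 for Mid1ip1 on the log2(FPKM + 1) scale. These 2 were among 6 genes called in that comparison (0.04% of all genes). The comparison may have prompted the choice of the pair, so no test is read from it. The call of Thrsp was lost under 9 of 19 single omissions (WT sham 1 and 4, WT AP 1, 2 and 3, KO sham 2, 4 and 5, KO AP 3). That of Mid1ip1 was lost under 15 of 19, that is all libraries but WT sham 2, WT AP 4, KO sham 1 and KO AP 1, and both were lost on the TPM scale. Among the other 8 genes, 0 passed, and their differences were −0.11 ± 0.27 for Fasn, −0.12 ± 0.15 for Acaca, −0.05 ± 0.43 for Acly, −0.50 ± 0.46 for Scd1, −0.02 ± 0.40 for Scd2, 0.01 ± 0.39 for Elovl6, −0.22 ± 0.23 for Srebf1 and 0.01 ± 0.38 for Me1. Their standard errors are wider than those of the pair, except that of Acaca (0.15), which is like that of Thrsp. The 95% interval is −0.67 to 0.45 for Fasn and −0.95 to 0.84 for Acly. A fall of the size seen in Mid1ip1 lies inside both of these, and the interval of Acaca is not given here.

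The KO AP libraries of colon also had the lowest sum of adipocyte markers. It was 10.01 to 25.3 FPKM against 26.8 to 65.6 in KO sham, 33.2 to 80.3 in WT AP and 49.3 to 165 in WT sham. The markers did not all follow the sum: by mean FPKM, Adrb3 was highest in KO AP (1.77), and Plin4 was 2.32 in both KO groups. Of the 12 markers, 8 could be tested and 0 were called between KO AP and KO sham, where 0.04% of all genes were. The difference was −1.21 ± 0.28 for Fabp4 (limma, adjusted p = 0.0734). Ucp1 was listed at 0 in 18 of 19 colon libraries and Lep in 14. In KO against WT colon in AP, 3 adipocyte markers were lower and 1 higher of 8 tested, beside 18.3% of all genes called. After sham operation 1 was lower and 1 higher, beside 31.4% of all genes called. The endothelial marker sum was also lowest in KO AP by median, 9.23 FPKM against 15.0 in KO sham, 24.0 in WT AP and 29.7 in WT sham. The part of the adipocyte and endothelial markers in the level of Thrsp was not tested.

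In WT colon, AP and sham did not differ past the threshold for any of the 10 genes, where 0 of 15001 genes passed (0%) and 938 had an unadjusted p under 0.05 with limma. The difference was −0.31 ± 0.15 for Thrsp and 0.33 ± 0.10 for Mid1ip1. The AP response was not shown to differ between genotypes for any of the 10 genes, nor for any gene (0%; 2821 genes at an unadjusted p under 0.05). For Mid1ip1 the response in KO minus that in WT was −0.97 ± 0.15 (limma, adjusted p = 0.0783), past the threshold without KO sham replicate 1 or KO AP replicate 1. For Thrsp it was −0.66 ± 0.21 (0.127). Both tests use the same KO AP libraries as the fall described above and are not independent of it.

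**Figure D3:**
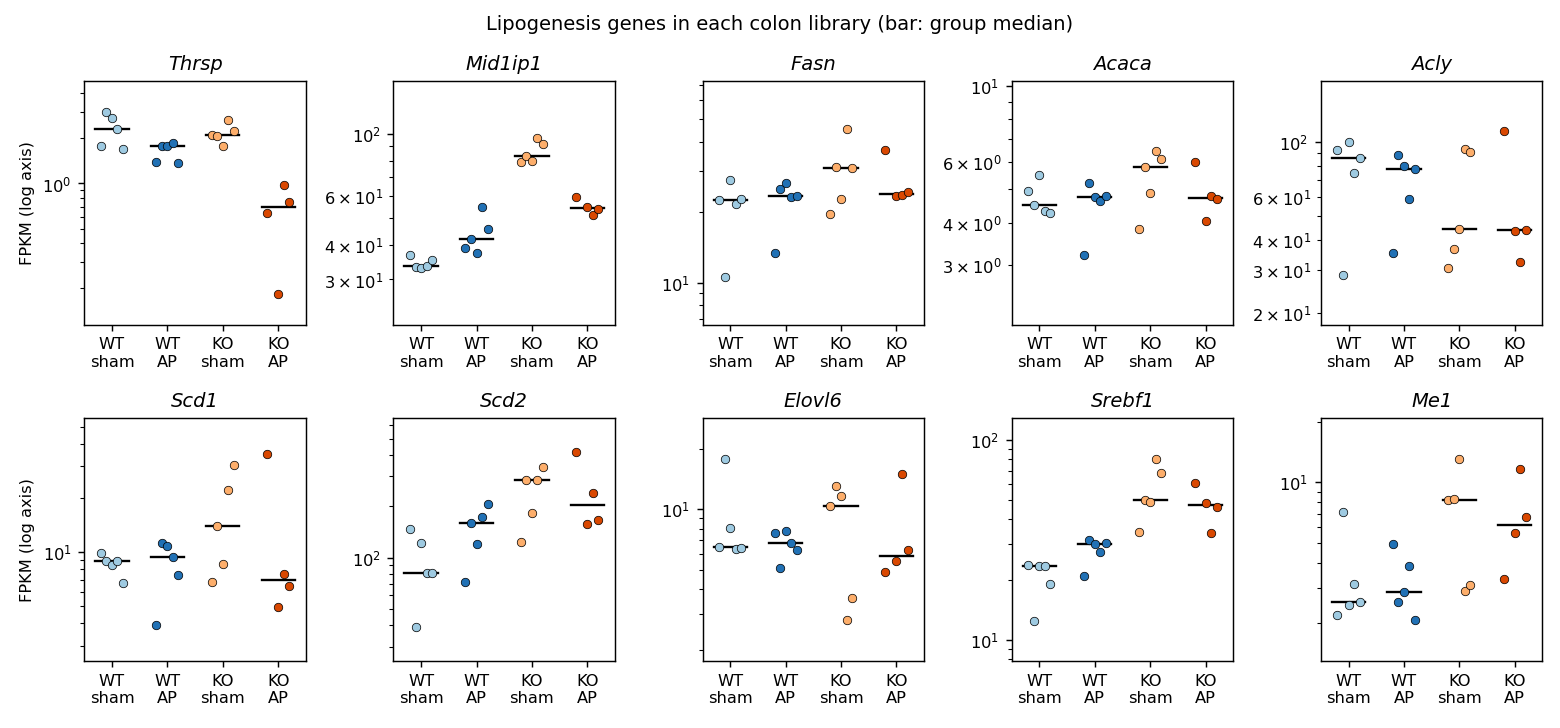
FPKM of the 10 genes in every colon library, on a log axis, by group of genotype and treatment, with 1 point per library and the group median as a bar. Thrsp is lowest in the 4 KO AP libraries, Mid1ip1 is highest in the 5 KO sham libraries, and Srebf1 is higher in KO than in WT in both treatments.

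Between genotypes in colon, Mid1ip1 was higher in KO after sham operation, and Thrsp was lower in KO in AP. After sham operation 3 of the 10 genes passed, all higher in KO, where 31.4% of all genes passed: Mid1ip1 by 1.296 ± 0.10 (limma, adjusted p = 1.94e-06; 2.50 times by mean FPKM), Srebf1 by 1.40 ± 0.22 (0.000319) and Scd2 by 1.40 ± 0.37 (0.00913). None of these 3 calls was lost under any single omission. The call of Mid1ip1 uses the same KO sham libraries as its fall described above and is not independent of that fall. Thrsp did not pass there (−0.05 ± 0.15, adjusted p = 0.815). In AP 3 passed, where 18.3% of all genes did: the difference was −0.71 ± 0.15 for Thrsp (0.00531), 0.33 ± 0.11 for Mid1ip1 (0.0488) and 0.72 ± 0.23 for Srebf1 (0.0387). The call of Thrsp held under all 19 single omissions. It uses the same KO AP libraries as the fall of Thrsp described above, is not independent of that fall and is a description only. Thrsp lay at 0.183 to 0.979 FPKM in these libraries, below the 1 FPKM of the filter. It entered the colon tests through the other groups. The calls of Mid1ip1 and Srebf1 were lost under 14 of 19 and 8 of 19 omissions, for Mid1ip1 all libraries but WT sham 2, WT AP 4 and KO sham 1, 2 and 4, and for Srebf1 all 5 WT AP libraries and KO AP 1, 3 and 5. Both were also lost on the TPM scale (adjusted p = 0.3997 and 0.192) and with no filter (0.0534 and 0.0749). On TPM the difference of Mid1ip1 was 0.20.

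Srebf1 in colon measured 23.8, 12.5, 23.4, 23.3 and 19.1 FPKM in WT sham and 34.5, 50.1, 48.8, 80.5 and 68.1 in KO sham, with no overlap. In AP it measured 20.8, 31.5, 30.2, 27.4 and 30.7 FPKM in WT and 60.8, 48.1, 34.2 and 46.4 in KO, again with every KO library higher. Scd2 measured 147, 39.3, 121, 81.3 and 80.9 FPKM in WT sham and 123, 285, 184, 285 and 339.7 in KO sham, where the groups overlapped. Among the enzymes without a call, Acly spanned 28.7 to 100.01 FPKM in WT sham and 30.7 to 93.9 in KO sham, a difference of −0.40 ± 0.40 with a 95% interval of −1.24 to 0.44. Fasn differed by 0.50 ± 0.25 after sham operation and 0.27 ± 0.27 in AP, Acaca by 0.16 ± 0.14 and 0.10 ± 0.15, Scd1 by 0.68 ± 0.43 and 0.25 ± 0.46, and Elovl6 by −0.20 ± 0.37 and 0.09 ± 0.39. Me1 differed by 0.77 ± 0.36 and 0.81 ± 0.38, and passed after sham operation without WT sham replicate 2 or KO sham replicate 4. In WT sham, replicate 2 had the highest colon epithelial marker sum, 9386 FPKM, and the highest Elovl6 and Me1 of its group.

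Srebf1 was thus called higher in KO than in WT in both tissues and both treatments on the FPKM scale, with the call in colon in AP lost on TPM and with no filter, while Acly and Acaca were lower in KO lung after sham operation and were not called in colon. Lung and colon were tabulated separately, and no test was made across tissues. Mid1ip1 was called higher in KO colon in both treatments, with the call in AP lost under the alternatives named above, and was not called in lung. Both colon calls share KO libraries with the fall of Mid1ip1 described above.

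**Figure D4:**
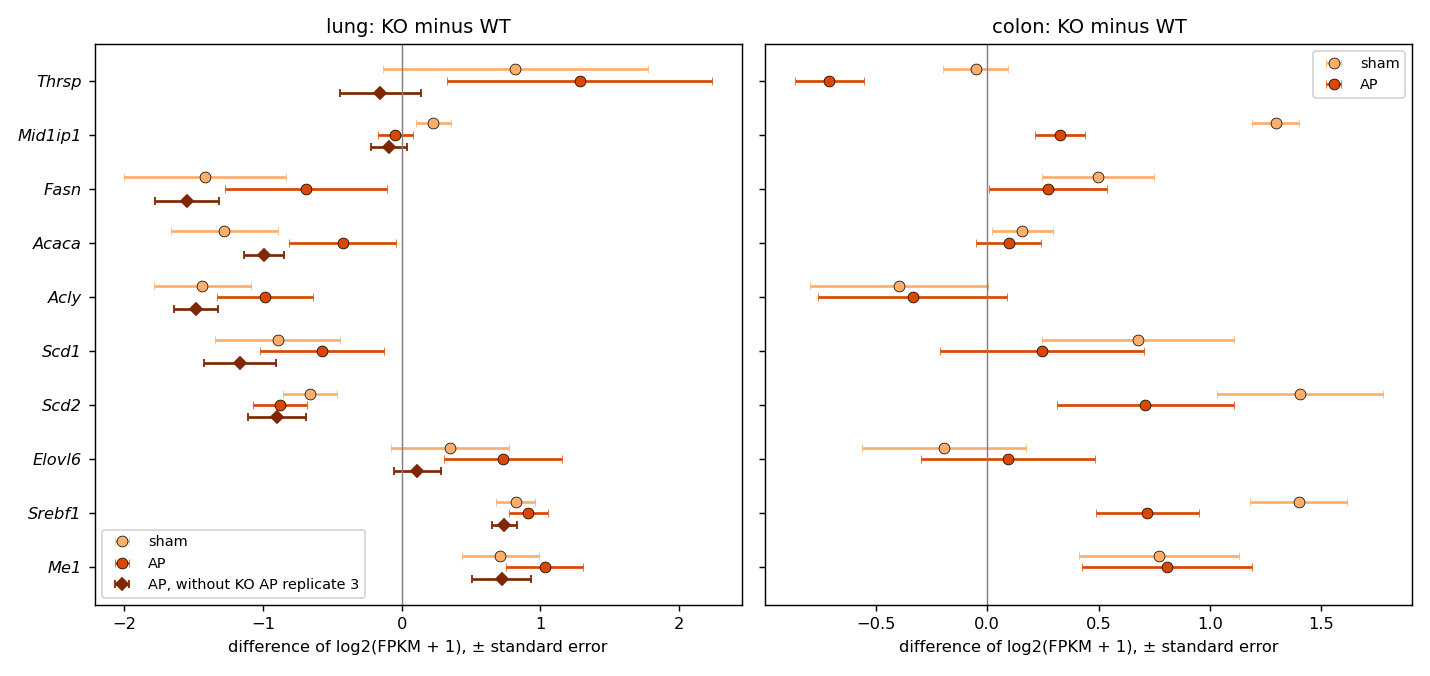
KO minus WT difference of log2(FPKM + 1) for the 10 genes after sham operation and in AP, in lung and in colon. Bars are ± standard error from limma. For lung, diamonds give the AP difference without KO AP replicate 3. Calls, at an adjusted p under 0.05, are not marked in the figure. Srebf1 lies to the right of 0 in all 4 comparisons, Acly lies left of 0 with a call in both lung comparisons, and Thrsp is left of 0 with a call in colon in AP.

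To ask whether single libraries that were high in Thrsp or Mid1ip1 for their group were also high in the enzymes, the deviations of log2(FPKM + 1) from the group means were correlated. There were 34 such relations, 17 in each tissue, each with a permutation test of 100000 resamples within groups, two-sided, adjusted over all 34. On the FPKM scale, over all libraries of a tissue, none had an adjusted p under 0.05, on r or on rho. In lung the relations of Thrsp rested on KO AP replicate 3: r with Elovl6 was 0.96 (rho 0.61, permutation adjusted p = 0.143) and 0.54 without that library, and r with Fasn was 0.91 (rho 0.53, 0.234) and 0.05 without it. Leaving out the 2 libraries whose deviations in Thrsp lay farthest from the median deviation, KO AP replicates 3 and 5, gave 0.51 for Elovl6 and 0.08 for Fasn. Lung Mid1ip1 gave r of 0.42 with Fasn (rho 0.48, permutation adjusted p = 0.248) and 0.33 with Acaca (rho 0.42, 0.491). Without the 2 libraries whose deviations in Mid1ip1 lay farthest from the median deviation these were 0.57 and 0.55.

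In colon, Mid1ip1 deviated upward with Scd2 (r 0.57, rho 0.59), Srebf1 (0.49, 0.60) and Acly (0.45, 0.55) and opposite to Elovl6 (−0.52, −0.66) and Me1 (−0.50, −0.65), with permutation adjusted p of 0.143 or more. The 2 libraries whose deviations in Mid1ip1 lay farthest from the median deviation were WT AP replicate 4 and KO sham replicate 4. Without them r was 0.67 with Scd2, 0.60 with Srebf1, 0.63 with Acly, −0.66 with Elovl6 and −0.74 with Me1. Within the 9 KO libraries 5 relations of Mid1ip1 passed the permutation test on r, while 2 of the 17 colon relations passed on rho. The adjusted p given next belong to r. The r was 0.905 (rho 0.83, adjusted p = 0.0304, 0.72 without the 2 farthest) for Fasn and 0.938 (rho 0.92, adjusted p = 0.0304, 0.92 without the 2 farthest) for Acly. For Srebf1 it was 0.940 (rho 0.98, adjusted p = 0.00850, 0.88 without the 2 farthest). It was −0.902 (rho −0.83, adjusted p = 0.0304, −0.87 without the 2 farthest) for Elovl6 and −0.949 (rho −0.88, adjusted p = 0.0197, −0.93 without the 2 farthest) for Me1. Within the 10 WT libraries 0 passed, with r of 0.18 for Fasn and 0.15 for Srebf1. The difference between genotypes was not tested. On the TPM scale 6 of the 17 colon relations passed on r, 5 of them positive, and 7 passed on rho. In lung on that scale 0 passed on r and 3 on rho. Thrsp and Mid1ip1 themselves correlated at 0.34 in lung and 0.04 in colon, neither past the threshold.

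The other 8 genes were correlated with each other as well, 28 pairs in each tissue, a family added after seeing the data and adjusted over its 56 relations. In colon 25 of 28 pairs passed the permutation test, 16 of them positive. The share of all gene pairs that would pass was not computed in either tissue, so these counts do not set the 8 genes apart. Acly and Srebf1 deviated together (r 0.93, rho 0.93, adjusted p = 0.00168, r 0.91 without the 2 farthest libraries), as did Elovl6 and Me1 (r 0.90, rho 0.84, adjusted p = 0.00168, r 0.85 without the 2 farthest libraries). The 2 pairs ran against each other, as Acly and Me1 show (r −0.90, rho −0.90, adjusted p = 0.00168, r −0.85 without the 2 farthest libraries). In lung 6 of 28 passed, and 1 did without KO AP replicate 3, Fasn with Acaca (r 0.72, rho 0.67, adjusted p = 0.00648, r 0.71 without the 2 farthest libraries).

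A further 16 relations, also added later, set Thrsp and Mid1ip1 against summed marker lists, with adjustment over the 16. In lung 3 passed the permutation test on r and 0 passed it on rho. Thrsp correlated with adipocyte markers (r 0.95, rho 0.78, adjusted p = 0.0178, r 0.65 without the 2 farthest libraries), and without KO AP replicate 3 this missed the threshold (r 0.57, permutation adjusted p = 0.181). Thrsp also correlated with smooth muscle markers (r 0.63, rho 0.41, adjusted p = 0.0250, r 0.53 without the 2 farthest libraries), which missed the threshold without KO AP replicate 3 (r 0.56, 0.181). Mid1ip1 correlated with alveolar type 2 markers with all libraries (r 0.68, rho 0.57, adjusted p = 0.0101, r 0.48 without the 2 farthest libraries) and without KO AP replicate 3 (r 0.71, 0.00560). On rho the permutation adjusted p was 0.0765 with all libraries and 0.115 without KO AP replicate 3. The sums add raw FPKM, and Sftpc outweighs the other type 2 markers. Its mean was 16298 FPKM in WT sham, where the next highest, Sftpb, had 2878. In colon 0 passed on r or on rho. By r, Thrsp and adipocyte markers were nearest (r 0.58, rho 0.51, adjusted p = 0.0902, r 0.65 without the 2 farthest libraries). By rho, Thrsp and endothelial markers were nearest (r 0.50, rho 0.58, permutation adjusted p of rho 0.0765, r 0.41 without the 2 farthest libraries).

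**Figure D5:**
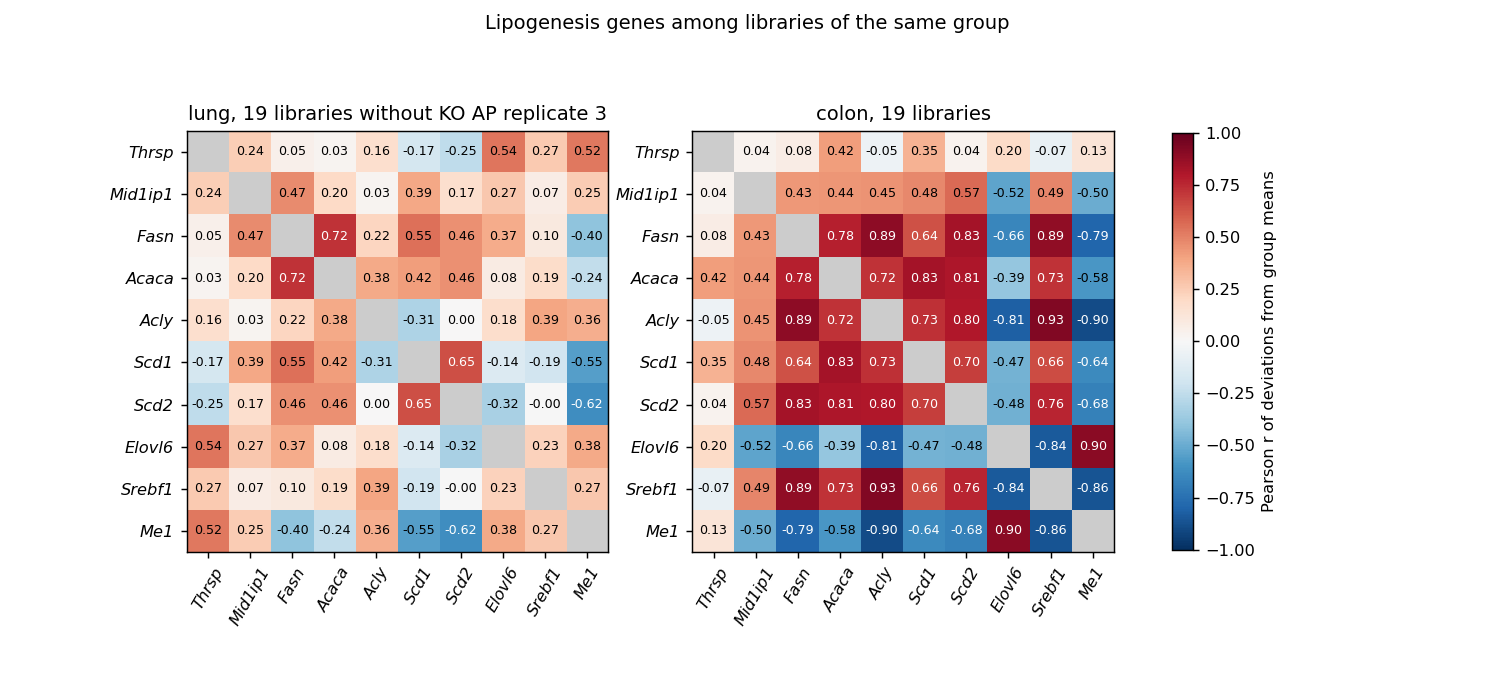
Pearson r of within-group deviations among the lipogenesis genes, in lung without KO AP replicate 3 and in colon over all libraries. In lung, r of Thrsp with Elovl6 is 0.54 without KO AP replicate 3, against 0.96 with all libraries. In colon, r of Mid1ip1 runs from −0.52 with Elovl6 to 0.57 with Scd2.

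Across all genes tested, those whose deviations were most like Thrsp in lung were Tnnt3 (r 0.99 over 20 libraries), Pdha1, Cpt2, Sbk2 and Hadhb, and without KO AP replicate 3 they were Cfd (r 0.85 over 19 libraries), Tff2, Tnnt3, Tnnt2 and Myl7. Cfd, which encodes adipsin, is among the adipocyte markers, and Tnnt2, Tnnt3 and Myl7 encode muscle proteins. The nearest lipogenesis gene to Thrsp was Elovl6, ranked 17 of 15977 genes, and 637 without that library. For Mid1ip1 the most alike in lung were Dusp22 (r 0.86), Crtap, Atp6v0d1, Acot7 and Bloc1s5. In colon they were Agt (r 0.81 over 19 libraries), Tm6sf2, Bphl, Hcar1 and Sh3bp5 for Thrsp, and Nccrp1 (r 0.88), Gsdmc, Kcnj2, Ptgr1 and Snord49b for Mid1ip1. The nearest lipogenesis gene to Mid1ip1 in colon was Scd2, ranked 236 of 15000. All these values share the same libraries and are a description.

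Beyond the 10 genes, 27 other enzymes of fatty acid and glycerolipid synthesis and NADPH supply were followed. In lung 7 of 25 tested were higher and 5 lower in KO after sham operation, with a median difference of 0.04, which was −0.15 on TPM, where 5 were higher and 6 lower. The 12 called of 25 stand beside 58.8% of all genes. Named by lowest p were Taldo1 (2.53 ± 0.29) and Pgd (1.84 ± 0.35), enzymes of the pentose phosphate pathway, which makes NADPH, and Lpin1 (−2.01 ± 0.31) and Gpam (−0.97 ± 0.17), which act in triglyceride synthesis. In AP, where 55.8% of all genes were called, 10 were higher and 4 lower (median 0.45), 7 and 4 on TPM (median 0.30), and 9 and 7 of 24 without KO AP replicate 3 (median 0.08), with Dgat1 (1.49 ± 0.17), Taldo1 (2.05 ± 0.29), Elovl5 (−0.77 ± 0.14) and Elovl1 (−0.91 ± 0.19). In colon 8 of 23 were higher and 2 lower after sham operation (median 0.32; 31.4% of all genes called), with Fads1 (0.83 ± 0.15), Slc25a1 (0.91 ± 0.19), the mitochondrial citrate carrier, Aacs (1.06 ± 0.22) and Tkt (0.96 ± 0.22). In AP 1 was higher (median 0.13; 18.3% of all genes called), Idh1 (0.61 ± 0.19). The median over all genes lay within 0.02 of 0 in each of these comparisons.

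Of 20 regulators of lipogenic transcription, 19 were tested in lung, and 1 was higher and 10 lower in KO after sham operation (median −0.39). Among them were the thyroid hormone receptor Thra (−1.23 ± 0.09), Nfya (−0.93 ± 0.13), a subunit of the CCAAT-binding factor, Mlxip (−1.24 ± 0.19), and Mbtps2 (−0.63 ± 0.10), a protease that releases SREBPs. In AP 2 were higher and 8 lower (median −0.19), with Thra (−0.93 ± 0.09), Mbtps1 (−0.81 ± 0.15), Mbtps2 (−0.54 ± 0.10) and Usf1 (0.56 ± 0.11). In colon 1 of 20 was higher and 6 lower after sham operation (median −0.02), with Mlxip (−1.06 ± 0.14), Sp1 (−0.48 ± 0.09), Ppargc1b (−0.77 ± 0.17) and Thra (−0.69 ± 0.17), and 0 were called in AP (median −0.10). These counts stand beside 58.8% and 55.8% of all genes called in lung and 31.4% and 18.3% in colon.

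Cholesterol synthesis genes, which are mainly targets of the related factor SREBP-2, were higher in KO colon after sham operation. There 17 of 24 were higher and 0 lower (median 0.87; 12 and 0 on TPM), where 31.4% of all genes were called, with Tm7sf2 (1.34 ± 0.16), Fdft1 (1.40 ± 0.23), Mvd (1.48 ± 0.25) and Msmo1 (1.64 ± 0.30). In AP 4 of 24 were higher and 0 lower (median 0.32), a share near the 18.3% of all genes, and these were Dhcr7 (0.82 ± 0.20), Msmo1 (1.27 ± 0.31), Tm7sf2 (0.63 ± 0.17) and Fdft1 (0.71 ± 0.24). In lung 11 of 23 were higher and 3 lower after sham operation (median 0.31; 9 and 7 on TPM), beside 58.8% of all genes called, with Ebp (1.22 ± 0.13), Tm7sf2 (0.96 ± 0.13), Mvk (1.15 ± 0.15) and Fdft1 (1.29 ± 0.20). In lung in AP 10 were higher and 4 lower (median 0.02), a share near the 55.8% of all genes, with Ebp (1.19 ± 0.13), Tm7sf2 (1.004 ± 0.13), Fdft1 (1.12 ± 0.20) and Stard4 (−0.79 ± 0.14). On TPM 5 were higher and 6 lower (median −0.17), and without KO AP replicate 3 the counts were 7 and 4.

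Between AP and sham, 0 genes of these 3 lists were called in either genotype of either tissue on all libraries, and 0 in the test of a different response. Without KO AP replicate 3, 1 passed in KO lung: Acsl1, which activates fatty acids for lipid synthesis or oxidation, at 0.97 (limma, adjusted p = 0.0234), against 1.25 ± 0.25 with it (0.0661). The other genes with the lowest p-values in KO lung were Dgat1 (0.58 ± 0.17), the regulators Mlxipl (1.21 ± 0.39) and Thra (0.23 ± 0.09), and in the cholesterol list Fdps (−0.78 ± 0.21) and Pmvk (−0.53 ± 0.21). In WT lung they were Fads2 (−0.43 ± 0.18), Fads1 (−0.21 ± 0.12), Mlxip (−0.39 ± 0.19), Nfya (−0.27 ± 0.13), Pmvk (−0.79 ± 0.21) and Hsd17b7 (−0.30 ± 0.18). In KO colon they were Acsl3 (0.64 ± 0.20), Lpin1 (0.40 ± 0.14), Thrb (0.37 ± 0.15), Mlxip (0.35 ± 0.14), Pmvk (−0.72 ± 0.27) and Tm7sf2 (−0.43 ± 0.17), with limma adjusted p of 0.128 or more. In WT colon they were Aacs (0.53 ± 0.22), Gpam (−0.29 ± 0.13), Insig1 (0.57 ± 0.21), an inhibitor of SREBP processing, Mbtps2 (−0.33 ± 0.14) and Fdft1 (0.78 ± 0.23). For the AP response in KO minus that in WT they were, in lung, Acsl1 (1.12 ± 0.36), Dgat1 (0.65 ± 0.24), Mlxipl (1.296 ± 0.55), Thrb (0.54 ± 0.24), Fdps (−0.77 ± 0.30) and Stard4 (−0.36 ± 0.20), and in colon Acsl3 (0.92 ± 0.28), Pgd (−0.70 ± 0.26), Mlxip (0.68 ± 0.20), Thrb (0.55 ± 0.20), Pmvk (−1.16 ± 0.37) and Tm7sf2 (−0.71 ± 0.23). The median of the 24 cholesterol genes in AP minus sham was 0.40 in WT colon, where 23 were above 0, and −0.11 in KO colon, where 7 were, beside 0.02 and −0.03 over all genes.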

How the data were processed

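RNA was extracted with TRIzol, messenger RNA was enriched, and libraries were sequenced on an Illumina NovaSeq, per the labels' protocols. HISAT2 2.1.0, StringTie 1.3.3b and genome build mm39 are named in the submitters' processing notes. The values are FPKM deposited by the authors, in 1 table per tissue, and 52081 of 55357 identifiers matched a symbol in an Ensembl gene name table. Low values were whole multiples of 1 read, within 0.01 read, for 98.4% to 99.0% of those checked, which gave each library's depth.

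A gene entered the tests of a tissue if 4 or more of its libraries reached 1 FPKM (all 10 lipogenesis genes did in both). The scale was log2(FPKM + 1), fitted with limma 3.58.1 (R 4.3.3, trend). One mean was fitted for each of the 4 groups, with Benjamini-Hochberg adjustment and a threshold of 0.05, and two-sided p-values. Correlations used Python 3.11.15 and scipy 1.17.1. The fit was tested on simulated data.

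The members and all gene lists were chosen with earlier results of these data known. Every member is described. Of other lists, up to 4 called genes with the lowest p are named, or the 2 with the lowest p where none was called; 1 gene so named is not reported here. Likeness names the 5 genes with the highest r, without predicted genes and pseudogenes. Alternatives were TPM and upper quartile scaling, a pseudocount of 0.1, no filter, a 5 FPKM filter, array weights, the replicate block, 2 groups alone and leaving out each library.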

Additional observations from a re-analysis of the deposited data

Results flagged for a closer look

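In groups of 4 or 5 libraries, the gap between the highest or lowest library and its nearest neighbour was compared with Dixon's 95% critical value. Of 80 groups of 1 gene tested, 16 had a library apart, and chance gives about 1 in 20. Of these, 7 belong to lung KO AP replicate 3, which was high in Thrsp (519 FPKM), Fasn (337), Acaca (33.6), Acly (102), Scd1 (580.2), Elovl6 (17.8) and Srebf1 (99.8), while the next highest libraries of that group had 3.66, 18.7, 4.79, 22.2, 81.5, 1.53 and 60.5 FPKM in the same order.

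The other 9 were spread over both tissues. In lung, WT AP replicate 1 was high in Thrsp (3.35 FPKM, the others 2.81 to 2.93), and WT AP replicate 4 was low in Acaca (6.14, the others 8.92 to 9.81). In colon, WT AP replicate 1 was low in Fasn (13.4 FPKM, the others 23.1 to 26.7). Colon KO AP replicate 1 was high in Fasn (36.7 FPKM), Acly (111) and Scd1 (35.0), against 23.5 to 24.4, 32.4 to 44.0 and 4.91 to 7.51 in the other 3. Colon WT sham replicate 2 was high in Elovl6 (17.8 FPKM, the others 6.31 to 8.03) and Me1 (7.15, the others 2.19 to 3.14), and colon KO AP replicate 4 was high in Elovl6 (14.9, the others 4.86 to 6.27).

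For Mid1ip1 in colon, every WT AP library lay above every WT sham library and every KO AP library below every KO sham library. The AP response in KO minus that in WT was −0.97 on the log2 scale, with an adjusted p of 0.0783 from limma, and so was not past the threshold.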

How the results depend on the processing

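The following alternatives moved a count of lipogenesis genes past the threshold. For AP against sham in KO colon (2 genes on the FPKM scale), TPM, the 5 FPKM filter, the replicate block and the 2 groups alone each gave 0, and upper quartile scaling and no filter gave 1. Under the 5 FPKM filter Thrsp was not tested in colon, nor Elovl6 in lung, so the counts under it are of 9 genes. For KO against WT colon in AP (3 genes), TPM, no filter, the 5 FPKM filter and the replicate block each gave 1. For the difference of the AP response in colon (0 genes), no filter gave 1 and array weights gave 2. For KO against WT lung in AP (4 genes), array weights gave 7. Leaving out 1 library at a time gave 3 to 7 genes for KO against WT lung in AP, 4 to 8 after sham operation, 0 to 2 for AP against sham in KO colon, 1 to 3 for KO against WT colon in AP, 3 to 4 after sham operation, 0 to 1 for the colon response difference, and 0 elsewhere. Of the 34 correlations, colon gave 6 past the threshold on TPM, 5 within KO and 1 without the 2 farthest libraries, against 0. The causes were not tested.

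Replicate numbers did not pair libraries (correlations of same-numbered deviations −0.524 to 0.465), so the replicate block is an alternative only. Counts over all genes moved too. AP against sham gave 13 calls in WT lung (TPM 1, no filter 1, replicate block 8, 2 groups alone 117, array weights 1640), 2 in KO lung (no filter 5, 5 FPKM filter 1, replicate block 1, 2 groups alone 0, array weights 15), 0 in WT colon (no filter 2, array weights 4) and 6 in KO colon (TPM 1, 5 FPKM filter 3, replicate block 0, 2 groups alone 0, array weights 1026). KO against WT colon in AP gave 2743 (5 FPKM filter 1823, array weights 4360). The response difference gave 0 in lung (1 with a pseudocount of 0.1, array weights 307) and 0 in colon (no filter 2, array weights 1884). Without colon KO sham replicate 1, AP against sham in KO colon gave 1372 calls and the colon response difference 1169 (228 without colon KO AP replicate 1), and without lung KO sham replicate 1, AP against sham in KO lung gave 234. None of the 18 called differences changed sign under these alternatives, and 36 of 82 others did in at least 1.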
